A study of Mus musculus with 11 samples.

Results

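The antibody heavy chain variable genes (Ighv) and kappa light chain variable genes (Igkv) were followed in B cells and plasma cells of mouse lung. The members were all rows of the deposited count matrices whose gene symbol begins with Ighv or Igkv. There were 345 of them among 31053 genes, 185 Ighv and 160 Igkv. GENCODE M21 lists 113 of the Ighv and 100 of the Igkv genes as V genes, a further 2 Ighv as IG_LV genes, and 70 Ighv and 60 Igkv as pseudogenes. B cells were barcodes with 3 or more UMIs (unique molecular identifiers, counts of captured RNA molecules) of Cd79a plus Cd79b and under 20 of Jchain. Plasma cells were barcodes with 20 or more Jchain UMIs and 3 or more of Derl3 plus Tnfrsf17. Both had 1000 to 30000 UMIs in all, at most 14% of them mitochondrial. This left 69267 of 81983 barcodes, of which 15900 were B cells and 439 plasma cells.

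Each library was a droplet-based single-cell 3′ RNA-seq library of dissociated total lung. WT was wild type at the p21 locus (+/+, 1 library, 18 months old), and p21Het was heterozygous (+/-, 3 libraries, 18 months, 1 of them 19 months). p21mTert carried 1 mTert allele (+/mTert, 5 libraries, 18 months, 1 of them 20 months), and p21mTertCD carried 1 mTertCD allele (+/mTertCD, 2 libraries, 18 months); the labels do not spell out CD. The series title places the mTert gene, the telomerase reverse transcriptase, in cells in which p21 is active, and the labels name no further driver and no mouse strain. Ages are those of the age label, whereas every sample title gives 18 months. The labels do not say that each library came from a separate mouse, so p-values measure the spread between these libraries, which may be partly technical. The design text speaks of 3 libraries run together, which are taken to be WT, p21Het_1 and p21mTert_1, since their titles carry no replicate number. They are called the first deposit, and the other 8 libraries the later one. WT had 1 library and entered no test between genotypes.

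An antibody is built from heavy and light chains. In each developing B cell, 1 of the many V genes of the heavy chain locus is joined to a D and a J segment, and 1 V gene of the kappa or lambda locus to a J segment, so that a mature B cell and its offspring carry 1 productive V gene per chain. The V exon encodes most of the part that touches antigen. A plasma cell is a B cell that has turned to secreting its antibody and fills with immunoglobulin RNA, and plasma cells that descend from 1 B cell share their V genes. IgM is the first class made; switching to IgG or IgA replaces the constant region and keeps the V exon. Innate-like B-1 cells, which are common in the body cavities, use a small set of V genes with antibodies against self and bacterial phospholipids and make much of the IgM that is present without immunization.

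The V exons of the genes on which the results below turn are printed to show how close the members of a family are to each other, since a 3′ library reads only part of a V exon and the counting assigned each read to 1 gene. Shown are the last 300 bases of each V exon, or the whole exon where it is shorter, 5′ to 3′ on the coding strand, from GRCm38 (GENCODE M21). Capitals mark bases that differ from the most similar other V exon of the same chain. Each of these V genes has its leader and its V region in separate exons, and the stretches lie in the V exon.
Ighv1-53, chr12:115158403-115158702, minus strand, nearest to Ighv1-72 (12 differences): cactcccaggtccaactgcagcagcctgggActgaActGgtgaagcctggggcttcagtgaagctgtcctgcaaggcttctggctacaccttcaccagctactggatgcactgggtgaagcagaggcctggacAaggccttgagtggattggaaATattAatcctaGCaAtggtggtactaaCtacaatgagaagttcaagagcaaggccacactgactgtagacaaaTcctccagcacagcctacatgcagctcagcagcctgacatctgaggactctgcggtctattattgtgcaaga
Ighv1-26, chr12:114788372-114788671, minus strand, nearest to Ighv1-18 (8 differences): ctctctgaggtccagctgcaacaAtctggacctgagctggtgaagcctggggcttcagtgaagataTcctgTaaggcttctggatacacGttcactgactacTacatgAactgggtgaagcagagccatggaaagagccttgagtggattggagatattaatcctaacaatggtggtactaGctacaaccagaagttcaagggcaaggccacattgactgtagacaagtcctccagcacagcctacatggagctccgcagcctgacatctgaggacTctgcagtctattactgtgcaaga
Ighv1-55, chr12:115208095-115208394, minus strand, nearest to Ighv1-64 (15 differences): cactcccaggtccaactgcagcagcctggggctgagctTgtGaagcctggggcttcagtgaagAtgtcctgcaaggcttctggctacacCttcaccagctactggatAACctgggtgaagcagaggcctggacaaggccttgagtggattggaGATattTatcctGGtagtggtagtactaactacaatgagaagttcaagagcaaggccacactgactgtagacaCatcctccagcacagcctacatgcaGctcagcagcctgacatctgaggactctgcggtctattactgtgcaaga
Igkv3-2, chr6:70698768-70699067, plus strand, nearest to Igkv3-1 (22 differences, 20 of them in the stretch shown): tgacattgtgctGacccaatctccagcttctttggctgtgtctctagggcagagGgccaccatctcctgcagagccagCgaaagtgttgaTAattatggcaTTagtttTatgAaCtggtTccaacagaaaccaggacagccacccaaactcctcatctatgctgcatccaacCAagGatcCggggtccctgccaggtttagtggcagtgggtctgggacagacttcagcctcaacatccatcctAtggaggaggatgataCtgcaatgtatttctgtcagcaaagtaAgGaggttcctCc
Igkv3-5, chr6:70663596-70663895, plus strand, nearest to Igkv3-10 (6 differences): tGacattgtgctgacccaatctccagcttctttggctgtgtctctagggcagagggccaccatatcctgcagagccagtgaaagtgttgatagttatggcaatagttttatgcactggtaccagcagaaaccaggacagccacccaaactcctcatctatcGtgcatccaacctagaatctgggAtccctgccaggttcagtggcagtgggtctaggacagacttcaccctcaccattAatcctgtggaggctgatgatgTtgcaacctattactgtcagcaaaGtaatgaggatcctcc
Ighv9-3, chr12:114140692-114140991, minus strand, nearest to Ighv9-2 (17 differences, 15 of them in the stretch shown): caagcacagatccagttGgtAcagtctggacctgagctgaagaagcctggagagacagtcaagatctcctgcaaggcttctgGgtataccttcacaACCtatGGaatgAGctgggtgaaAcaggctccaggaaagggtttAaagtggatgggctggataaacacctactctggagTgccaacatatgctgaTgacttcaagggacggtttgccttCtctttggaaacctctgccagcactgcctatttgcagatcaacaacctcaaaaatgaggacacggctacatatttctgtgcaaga
Igkv5-39, chr6:69900424-69900721, minus strand, nearest to Igkv5-45 (25 differences): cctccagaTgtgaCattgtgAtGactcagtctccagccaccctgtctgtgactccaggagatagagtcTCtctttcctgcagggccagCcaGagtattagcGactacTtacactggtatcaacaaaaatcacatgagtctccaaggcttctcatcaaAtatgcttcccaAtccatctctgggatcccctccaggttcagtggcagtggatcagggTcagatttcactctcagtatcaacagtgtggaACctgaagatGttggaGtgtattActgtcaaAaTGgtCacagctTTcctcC
Ighv11-2, chr12:114048241-114048540, minus strand, nearest to Ighv11-1 (4 differences): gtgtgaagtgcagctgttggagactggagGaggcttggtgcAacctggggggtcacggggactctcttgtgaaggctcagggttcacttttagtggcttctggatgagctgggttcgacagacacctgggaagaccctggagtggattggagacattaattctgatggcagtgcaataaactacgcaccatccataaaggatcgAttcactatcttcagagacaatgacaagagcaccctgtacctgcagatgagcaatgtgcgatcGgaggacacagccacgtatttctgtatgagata
Igkv14-126, chr6:67896345-67896642, plus strand, nearest to Igkv14-111 (27 differences): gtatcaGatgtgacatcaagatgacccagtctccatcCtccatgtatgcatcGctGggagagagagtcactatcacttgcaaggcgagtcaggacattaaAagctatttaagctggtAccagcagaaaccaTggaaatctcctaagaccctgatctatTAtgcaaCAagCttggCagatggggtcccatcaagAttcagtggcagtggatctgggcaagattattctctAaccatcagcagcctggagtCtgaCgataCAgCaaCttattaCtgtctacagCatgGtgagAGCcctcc

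Ighv1-53 and Ighv1-72, the heavy V gene of the classical response to the hapten NP in C57BL/6 mice, were 96.1% identical over the V exon. Ighv1-55 differed from Ighv1-53 at 15 bases (95.1% identity), as many as from Ighv1-64. Ighv1-72 and Ighv1-62-3 differed at 3 bases (99.0% identity), and Igkv3-5 and Igkv3-10 at 6 (98.1%). Igkv3-2 and Igkv3-5, of the same family, were 90.6% identical. Among the 215 functional V exons of both chains, 2 were identical to another (Ighv1-62-2 and Ighv1-71), 16 had a neighbour with 5 or fewer differences, and the median distance to the nearest exon was 16 bases. Counts of genes with so close a neighbour, Ighv11-2 among those printed, are uncertain between the copies. Somatic mutation adds further differences that these files do not show.

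The libraries held 42038434 to 85988955 UMIs. B cells numbered 949 to 2415 per library except in p21mTertCD_1, which had 126, and plasma cells 12 to 120 (median 28). B cells of each library carried the whole list of 10 B cell markers at a summed 4234 to 7336 CPM (UMIs per 1000000 UMIs of the summed cells), against 511 to 737 CPM for the 10 plasma cell markers. In plasma cells the plasma list stood at 28415 to 51949 CPM and the B list at 669 to 1108 CPM. All 5 epithelial markers were detected in both classes, at 2742 to 11652 CPM in B cells and 398 to 2662 CPM in plasma cells, and the 8 myeloid markers reached 7244 CPM in the B cells of p21mTertCD_1. Tert had 2 to 22 UMIs in the B cells of a library, too few to check the mTert labels, and Cdkn1a, which encodes p21, stood at 23.8 to 43.0 CPM. Any pair of libraries shared 9 to 83 barcodes (median 23 over 55 pairs), most in p21mTert_3 and p21mTert_5. No plasma cell barcode occurred in more than 1 library, and 29 B cell barcodes did.

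Most V transcripts came from plasma cells. The passing barcodes held 53032 V gene UMIs, of which 80.1% lay in B and plasma cells. The 439 plasma cells held 32063 and the 15900 B cells 10396. An Ighv UMI was found in 98.6% of plasma cells and an Igkv UMI in 97.7%, at a median of 21991 UMIs per cell. In B cells the shares were 20.3% and 25.1% at a median of 4224 UMIs. T cells, which do not express antibody genes, gave 0.705% and 0.817% at a median of 6155 UMIs, and endothelial cells 0.512% and 0.965% at 3788 UMIs. With each cell thinned to 1000 UMIs, which leaves no passing cell out, an Ighv UMI remained in 61.3% of plasma cells, 5.19% of B cells, 0.142% of T cells and 0.161% of endothelial cells, and an Igkv UMI in 76.3%, 6.40%, 0.135% and 0.234%. B cells were thus above the background of these reference cells in both chains. Over single thinned libraries the Ighv and Igkv shares reached 0.295% and 0.467% in T cells and 0.625% for each chain in endothelial cells. In B cells they were at least 2.75% and 4.52%. Reference cells had to lack Cd79a and Cd79b UMIs, which leaves out barcodes with such B cell RNA and can lower this background.

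A plasma cell had a median of 21 Ighv and 40 Igkv UMIs, and a median of 100% of its UMIs of a chain came from 1 gene. That gene is called the leading V gene of the cell where it had over 50% of at least 2 UMIs of the chain. A leading Ighv gene was assigned to 411 of the 439 plasma cells and a leading Igkv gene to 420, whereas of the 15900 B cells 605 and 690 received one. In 10 plasma cells lambda constant UMIs exceeded those of Igkc, the kappa constant gene. V exon UMIs were few beside those of the constant genes. B cells had a median of 1.45 Ighv UMIs per 100 of the heavy chain constant genes (0.748 to 2.37 over the libraries) and 0.918 Igkv UMIs per 100 of Igkc, and plasma cells 0.828 and 0.542.

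In B cells the V gene repertoire was broad. UMIs were found for 117 of 185 Ighv and 128 of 160 Igkv genes, 15 and 23 of them in all 11 libraries. Annotated pseudogenes made up 1.13% of the Ighv and 1.80% of the Igkv UMIs. The share of a gene is its percentage of the UMIs of its chain, summed over the cells of a library, and is given as the mean over the 11 libraries. A B cell library had 103 to 730 Ighv UMIs and 206 to 828 Igkv UMIs; both minima are those of p21mTertCD_1. The UMIs of 1 cell are copies of 1 rearranged gene and are not independent, so no binomial interval is given for these shares.

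Ighv1-26 led the heavy chain in B cells with a mean share of 4.82% ± 1.51 (SD, n = 11). It stood at 3.77% in WT, at 4.98%, 5.89% and 3.90% in the p21Het libraries, and at 6.08%, 3.84%, 4.44%, 6.11% and 4.60% in the p21mTert libraries. The p21mTertCD libraries had its lowest and highest share, 1.94% and 7.43%. Ighv9-3 followed with a mean of 4.24%, 15.9% in p21Het_2, no UMI in p21mTertCD_1 and 1.30% to 4.79% in the others. A single cell of p21Het_2 carried 82 Ighv UMIs led by Ighv9-3. Without B cells that held 10 or more V UMIs of 1 chain, 19 cells with 9.61% of all B cell V UMIs, the mean share of Ighv9-3 was 2.92% and that of Ighv1-26 4.94%.

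The next heavy chain genes were Ighv1-53 (3.66%), Ighv1-55 (3.39%), Ighv3-6 (3.12%), Ighv6-3 (2.94%), Ighv1-81 (2.74%) and Ighv1-64 (2.71%). Neighbours in this order lay closer together than their spread over libraries. In the kappa chain Igkv1-117 had a mean of 4.95%, from 0.971% in p21mTertCD_1 to 8.38% in p21Het_2, and Igkv12-44 had 4.75%, from 0.485% in p21mTertCD_1 to 8.33% in p21mTert_2. Igkv19-93 (4.14%), Igkv1-135 (3.83%), Igkv10-96 (3.61%) and Igkv1-110 (3.52%) likewise had their lowest share in p21mTertCD_1. In that library 2 B cells of 10 or more V UMIs held 64.7% of the V UMIs. This lowers the share of every gene that they did not carry. Without them its Igkv UMIs fell from 206 to 56. Igkv4-55 owed its mean of 4.04% to p21mTertCD_1, where it stood at 40.3% against a median of 0.307% over the 11. There 1 of the 2 cells gave 87 Igkv UMIs led by it. The other gave 63 led by Igkv8-30 and 28 Ighv UMIs led by Ighv1-72. Igkv3-2 (3.91%) ranged from 0.445% in WT to 11.7% in p21Het_3. Without the cells of 10 or more V UMIs its mean was 2.03% and that of Igkv4-55 0.398%.

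**Figure D1:**
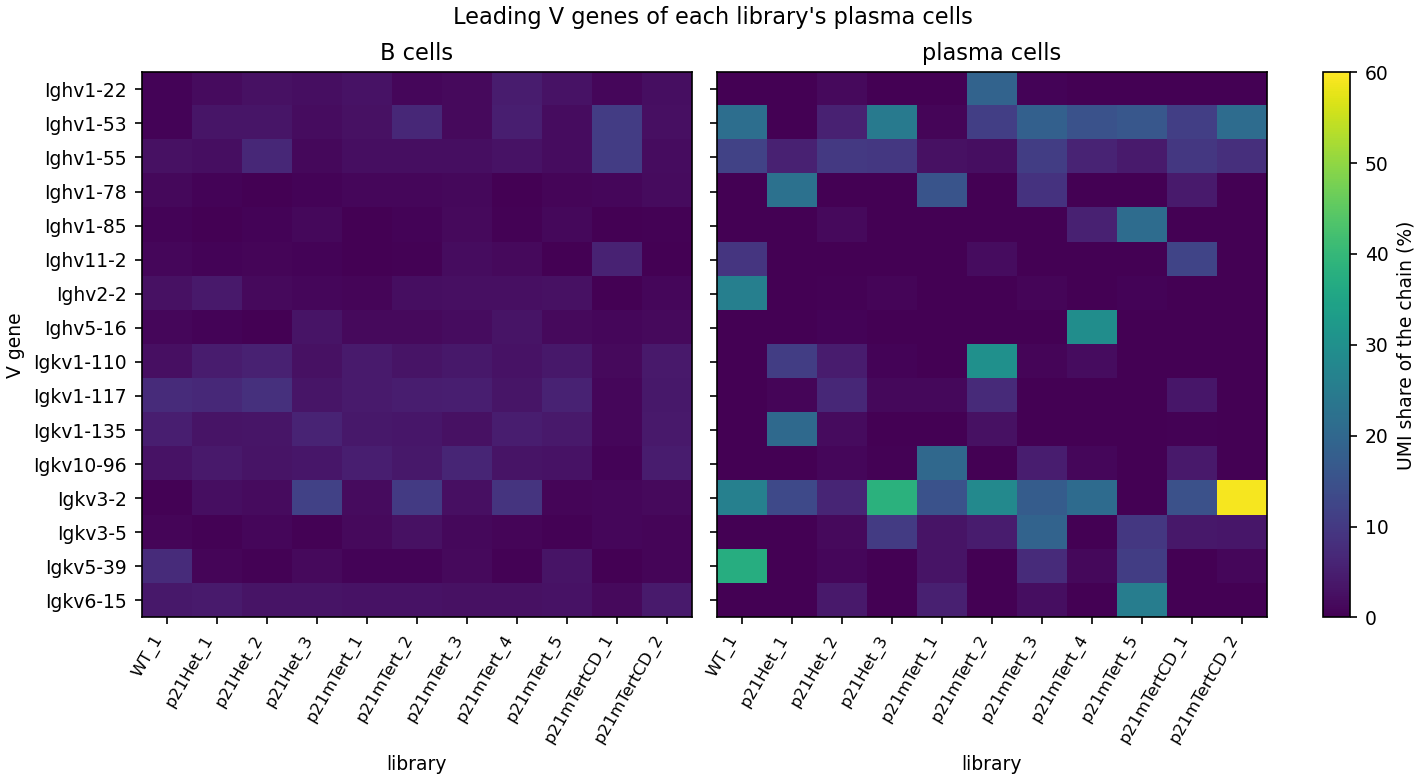
UMI share (percent of the UMIs of its chain, colour) of the V genes that led the plasma cells of at least 1 library, in B cells (left) and plasma cells (right), by gene (rows) and library (columns). The genes were chosen as leaders of plasma cells, so their lower shares in B cells follow from the choice. Igkv3-2 in p21mTertCD_2 is the brightest cell of the plot (59.1%), and no gene of the p21Het_2 plasma cells exceeds 9.96%.

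In plasma cells the leading genes differed from library to library, and so did the share they held. UMIs were found for 96 Ighv and 91 Igkv genes. Ighv1-55 was the only one found in all 11 libraries, and no Igkv gene was. The leading gene of a library held 9.96% to 29.5% of the Ighv UMIs and 6.68% to 59.1% of the Igkv UMIs. The correlation of gene shares between 2 libraries, over the genes found in any, had a median Pearson r of 0.248 for Ighv and 0.335 for Igkv over 55 library pairs, against 0.679 and 0.673 in B cells. Single pairs of libraries ranged from -0.0700 to 0.686 and from -0.0877 to 0.878 in plasma cells, and from 0.129 to 0.798 and from -0.0165 to 0.912 in B cells, where the lowest without p21mTertCD_1 were 0.357 and 0.407. These correlations share libraries, are given as a description, and carry the smaller cell number of plasma cells.

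Ighv1-53 had the highest mean share of a heavy chain gene in plasma cells, 13.3% ± 8.39 (SD, n = 11). Of the Ighv UMIs of WT it held 21.6%, of those of the p21Het libraries 0%, 5.62% and 24.7%, of those of the p21mTert libraries 0.760%, 11.1%, 18.4%, 15.1% and 16.2%, and of those of the p21mTertCD libraries 11.1% and 21.2%. It was high in libraries of each genotype and absent or low in p21Het_1 and p21mTert_1. By cells, it was the leading gene of 67 of 411 plasma cells (16.3%) and of 13 of 605 B cells (2.15%).

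Ighv1-55 averaged 7.39%, from 2.26% in p21mTert_2 to 11.9% in WT. The libraries of the genotypes overlapped. It was the leading gene of 21 plasma cells (5.11%) and of 6 B cells (0.992%). In p21Het_3, p21mTert_2, p21mTert_4 and p21mTert_5 it had UMIs but led no plasma cell. Ighv1-78 averaged 4.65% from 5 libraries. It held 22.5% in p21Het_1, 95.0% of it from 1 cell, 15.6% in p21mTert_1, 8.78% in p21mTert_3 and 4.23% and 0.0898% in p21mTertCD. Ighv9-3 averaged 4.54% with 17.8% in WT, 13.8% in p21mTert_5, 8.75% in p21mTert_1 and 7.32% in p21mTert_3, and no UMI in the p21Het libraries. Ighv3-6 averaged 3.79%.

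Igkv3-2 held the highest mean share of any V gene in plasma cells, 21.8% ± 16.2 (SD, n = 11) of Igkv UMIs. WT stood at 26.1%, the p21Het libraries at 13.2%, 6.17% and 38.2%, the p21mTert libraries at 15.2%, 28.3%, 17.6%, 20.996% and 0%, and the p21mTertCD libraries at 14.8% and 59.1%. All libraries but p21mTert_5 held it, and the genotypes overlapped. It was the leading gene of 82 of 420 plasma cells (19.5%), 1 to 23 cells in each of 10 libraries, and of 21 of 690 B cells (3.04%). Of the 82 plasma cells 76 had Ighm, the IgM constant gene, as their most abundant heavy constant gene, 5 had Igha and 1 an Ighg gene. Over all plasma cells 287 of 439 (65.4%) were Ighm cells. Both counts pool cells over libraries, and p21mTertCD_2, which gave 23 of the 82, had 97.5% Ighm cells. The 2 counts were not compared within libraries.

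The other leading kappa genes were carried by fewer libraries. Igkv5-39 averaged 5.69% and held 37.5% in WT, 10.9% in p21mTert_5 and 7.47% in p21mTert_3. Igkv3-5 averaged 5.09%, with 19.2% in p21mTert_3, 10.3% in p21Het_3 and 9.76% in p21mTert_5. Igkv1-110 (4.45%) stood at 30.0% in p21mTert_2 and 10.9% in p21Het_1, and Igkv14-126 (4.31%) at 19.1% in WT, 15.9% in p21Het_1, 9.49% in p21mTertCD_1 and 2.98% in p21mTert_2. In p21Het_1, with 13 plasma cells, 1 cell gave all UMIs of the leading kappa gene, Igkv1-135 (20.5%). In p21mTert_5, with 12, 1 cell gave all of Igkv6-15 (25.4%) and another all of Ighv1-85 (21.2%). Other leading genes were Ighv2-2 in WT (25.9%), Ighv1-22 in p21mTert_2 (19.2%), Ighv5-16 in p21mTert_4 (29.5%), Ighv11-2 in p21mTertCD_1 (12.3%), and Igkv10-96 in p21mTert_1 (20.3%). p21Het_2, the library with most plasma cells (120), was led by Ighv1-55 (9.96%) and Igkv1-117 (6.68%), the lowest leading shares of any library. In that library the leading heavy chain gene of B cells, Ighv9-3, held more (15.9%). Further leading genes that drew over 50% of their UMIs from 1 cell were Ighv1-78 in p21mTert_1 (80.5%), Ighv11-2 in p21mTertCD_1 (76.7%), Ighv2-2 in WT (58.3%), Ighv1-53 in p21Het_3 (55.1%) and Ighv5-16 in p21mTert_4 (51.3%).

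Plasma and B cells of the same library were compared with edgeR's quasi-likelihood test on summed counts, with the library as a block and the chain total as offset, so that a fold change is that of a gene's share. The filter on low counts left 3 of the 345 V genes, all of which were called higher, beside 62.7% of all 8733 genes tested called in either direction and 24.8% called higher. They passed mainly through the plasma cell sums, so the filter favoured this direction and the count is no support for it. The minimum of 4.60 CPM was reached by Igkv3-2 in 10 of 11 plasma cell sums and 3 of 11 B cell sums, by Ighv1-53 in 9 and 2, and by Ighv1-55 in all 11 and in 2. A B cell sum held 2 to 85, 2 to 48 and 4 to 38 UMIs of them. Igkv3-2 was higher by 2.49 on the log2 scale (SE 0.32, Benjamini-Hochberg adjusted p = 3.28e-07). Ighv1-53 was higher by 1.90 (SE 0.34, adjusted p = 3.35e-05), and Ighv1-55 by 1.20 (SE 0.22, adjusted p = 5.79e-05). The share was higher in plasma cells in 10 of 11 libraries for Igkv3-2, 9 for Ighv1-53 and 10 for Ighv1-55. For Ighv1-55 these include libraries in which it led no plasma cell, such as p21mTert_2, where its share in B cells was 2.19%. Each of the 3 was called in every alternative in which it passed the filter, the later deposit alone among them (Igkv3-2 2.22, Ighv1-53 1.94 and Ighv1-55 1.16). Among fits with this filter such agreement is no further support, since the filter favours genes that are high in plasma cells. Without B cells of 10 or more V UMIs only 1 V gene, an Ighv gene, passed it. The other members had too few UMIs for this filter. The count of 3 is no measure of how many V genes differed.

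With no filter 254 V genes were tested and 93 called, 85 of them lower in plasma cells, beside 35.9% of all genes called in either direction and 25.0% called lower. Those higher in plasma cells were Igkv3-2, Ighv1-53, Ighv1-55, Igkv5-39, Igkv3-5, Igkv4-70, Ighv1-62-3 and Ighv1-43. Few cells stand behind some of these. Ighv1-43 had 37 UMIs in 1 library, led 1 plasma cell and had no UMI in B cells. Igkv4-70 led 11 plasma cells, with 65.2% of its UMIs in p21Het_2, and Ighv1-62-3 led 10. Igkv5-39 led 18 and Igkv3-5 led 22, with 55.8% and 65.4% of their UMIs in p21mTert_3. A gene that is found in most B cell libraries and in few plasma cell libraries is called lower there with UMIs of few plasma cells. Of the 16 genes with the highest mean shares in B cells, 10 had a lower mean share in plasma cells, among them Igkv12-44 (0.957% against 4.75%), Igkv1-117 (1.92% against 4.95%) and Ighv1-26 (2.31% against 4.82%). The other 6, Igkv3-2, Ighv1-53, Ighv1-55, Ighv9-3, Ighv3-6 and Igkv1-110, had a higher one. Counted by cells, Ighv1-26 went the other way, as the leading gene of 30 of 411 plasma cells (7.30%) and of 27 of 605 B cells (4.46%). Choosing genes for a high share in B cells favours a lower value elsewhere, and these counts are a description.

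**Figure D2:**
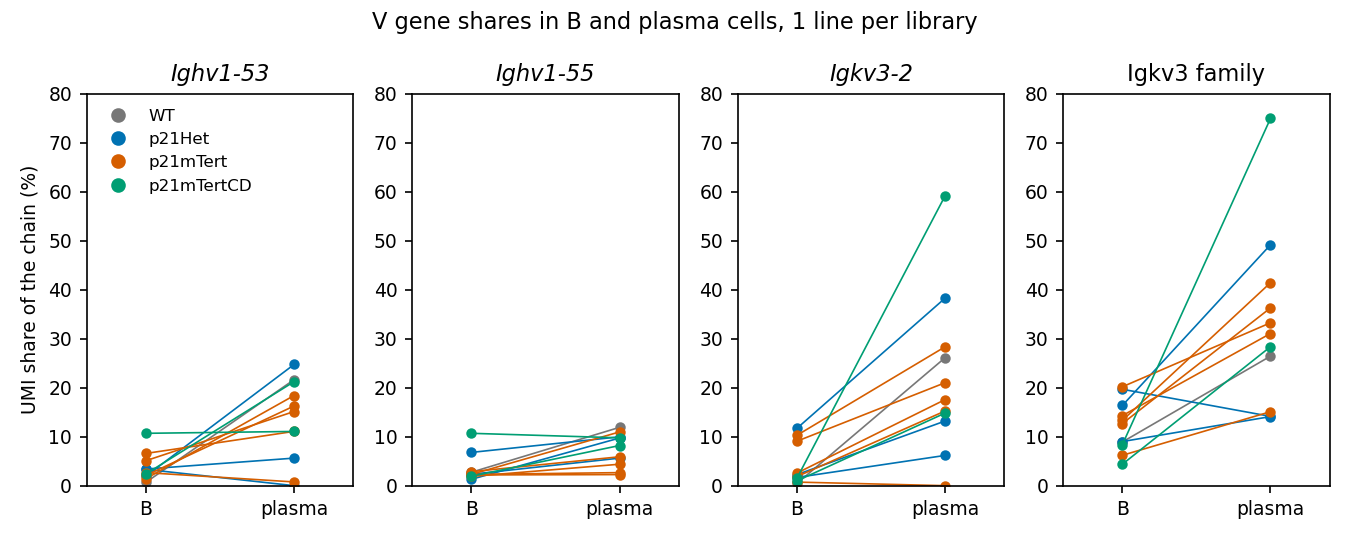
UMI share of the chain (percent, y axis) in B and plasma cells (x axis) for Ighv1-53, Ighv1-55, Igkv3-2 and the whole Igkv3 family, with 1 line per library coloured by genotype. The Igkv3 family was higher in plasma cells in 10 of 11 libraries, and the lines of the genotypes are interleaved.

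V families, groups of genes with similar sequence that share the first number of the symbol, were compared by a 2-sided exact sign-flip permutation test over libraries, with 12 families adjusted together. The Igkv3 family held 33.1% ± 17.9 (SD, n = 11) of Igkv UMIs in plasma cells and 12.1% ± 5.25 in B cells. The difference of 20.98 percentage points was in the same direction in 10 of 11 libraries (exact p = 0.00293, adjusted p = 0.0352). In p21Het_2 the share was 14.1% in plasma cells and 19.7% in B cells. With p adjusted over the families each time, the call was lost in 9 of 16 alternatives, all of the same direction: with Jchain of 100 or more (adjusted exact p = 0.0586), in the later deposit alone (23.1 points, adjusted exact p = 0.141), and without WT, p21Het_3, p21mTert_2, p21mTert_3, p21mTert_4, p21mTertCD_1 or p21mTertCD_2, each with an adjusted exact p of 0.0703. Igkv3-2 alone held 21.8 of the 33.1 percentage points on average. No other family passed the test over all libraries. Ighv1, the largest heavy chain family, held 64.2% ± 11.96 in plasma cells and 55.8% ± 10.05 in B cells (exact p = 0.122, adjusted p = 0.396), and the 10 remaining families had adjusted p from 0.396 to 1.

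The position of a V gene along its locus was described without a test. The genes of each chain were divided into 4 groups of nearly equal number by distance from the constant gene, Ighm or Igkc. The kappa group nearest to Igkc, 22.3 to 825 kb away, held 49.3% of Igkv UMIs in plasma cells and 32.9% in B cells, higher in plasma cells in 8 of 11 libraries. Igkv3-2 lies 27.4 kb from Igkc and belongs to this group. Its own mean share, given above, rose by more than that of the whole group. The other genes of the group together had a lower mean share in plasma cells than in B cells. The farthest kappa group held 25.1% in plasma cells and 31.95% in B cells. For the heavy chain, the groups from nearest to farthest held 22.8%, 22.9%, 22.7% and 31.6% in B cells and 18.9%, 17.2%, 30.2% and 33.6% in plasma cells. Ighv1-53 lies in the third of these, and its own mean share (3.66% in B cells, 13.3% in plasma cells) likewise rose by more than that of the group. Thus these values show no shift by position apart from single genes.

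Cells that carried the same heavy and kappa V genes recurred in different libraries. Both leading genes were assigned in 396 plasma cells, which held 241 distinct Ighv/Igkv pairs. A pair was found in 2 or more libraries 28 times and in 3 or more 11 times. These 28 pairs covered 144 of the 396 cells (36.4%). V gene names alone do not show that 2 cells carry the same antibody, since the D and J segments and the junctions were not analysed here.

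Ighv1-53 with Igkv3-2 was the most frequent pair, in 34 plasma cells of 6 libraries and 3 genotypes. It was found in 4 cells of p21Het_2, 3 of p21mTert_2, 10 of p21mTert_3, 5 of p21mTert_4, 4 of p21mTertCD_1 and 8 of p21mTertCD_2. Of these cells 30 were Ighm and 4 Igha cells. The pair had at least 5 Ighv and 9 Igkv UMIs in each cell, with medians of 22 and 51. Of the 73 Igkv3-2 cells with a leading Ighv gene 46.6% had Ighv1-53, against 9.60% of the 323 other cells. Igkv3-2 was also found with Ighv1-26 (7 cells, 5 libraries), Ighv1-55 (7 cells, 4 libraries) and Ighv1-42 (6 cells, 3 libraries), all of them Ighm cells.

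**Figure D3:**
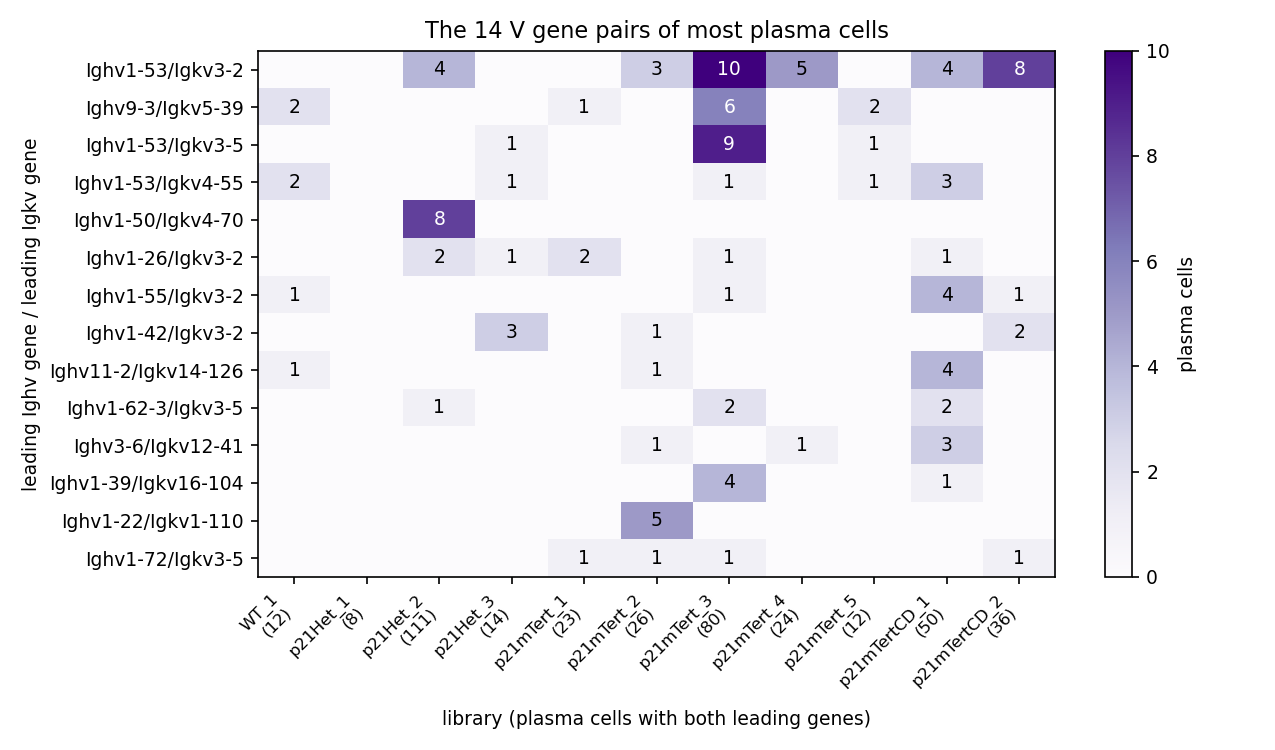
Number of plasma cells (colour and digits) with each of 14 frequent Ighv/Igkv pairs (rows) by library (columns, with the number of plasma cells that had both leading genes). Ighv1-53/Igkv3-2 occurs in 6 libraries, whereas Ighv1-50/Igkv4-70 and Ighv1-22/Igkv1-110 each occur in 1.

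Further pairs crossed libraries. Ighv9-3 with Igkv5-39 was found in 11 cells of WT, p21mTert_1, p21mTert_3 and p21mTert_5, all Ighm cells, and made up 11 of the 17 Igkv5-39 cells with a leading Ighv gene (64.7%), against 2 Ighv9-3 cells among the 379 others. Ighv1-53 with Igkv3-5 was found in 11 Ighm cells, 9 of them in p21mTert_3. Ighv1-53 with Igkv4-55 was found in 8 cells of 5 libraries and all 4 genotypes. Ighv1-72 with Igkv3-5 was found in 1 cell each of 4 libraries. Of the 21 Igkv3-5 cells with a leading Ighv gene 52.4% had Ighv1-53, 23.8% Ighv1-62-3 and 19.0% Ighv1-72, against 14.4%, 1.33% and 1.60% of the 375 others. These 3 heavy chain genes are 95.1% to 99.0% identical to each other, so the split between them is uncertain. The percentages of partners again pool cells over libraries, among them the 9 of p21mTert_3, and were not compared within libraries. Other pairs were frequent in 1 library: Ighv1-50 with Igkv4-70 in 8 cells of p21Het_2, and Ighv1-22 with Igkv1-110 in 5 cells of p21mTert_2, all of them Ighm cells.

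Recurrence was mostly among IgM cells. Of the 265 Ighm cells with a pair, 126 (47.5%) had a pair seen in 2 or more libraries, and of the 131 Igha and Ighg cells 18 (13.7%), 12 of 77 with Igha and 6 of 54 with an Ighg gene. The share was higher among Ighm cells in 10 of the 10 libraries that had cells of both kinds. Some of these rest on few cells: p21mTertCD_2 had 1 Igha or Ighg cell with a pair, p21Het_3 had 3, and p21Het_1 had 5 beside 3 Ighm cells. A pair counts as recurrent through cells of other libraries, so the libraries are not independent here. Ighm cells were also the larger pool in which a pair could recur. Libraries differ in their numbers of both, from 38.5% Ighm plasma cells in p21Het_1 to 100% in WT, and this comparison was not tested.

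Barcodes above the limit of 30000 UMIs were looked at in the same way, since plasma cells are rich in RNA. There were 289 such barcodes that otherwise met the plasma cell rule, 264 of them with a pair, and 61 (23.1%) carried 1 of the 28 recurrent pairs. Ighv1-53 with Igkv3-2 was found in 20 of them in 7 libraries (7.58%, against 8.59% of the 396 cells). Ighv1-26 with Igkv3-2 was found in 11 of them in 5 libraries. Among 71 B cells with both leading genes 10 carried a recurrent pair, 2 of them Ighv1-53/Igkv3-2, 3 Ighv11-2/Igkv14-126 and 1 Ighv9-3/Igkv5-39.

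V genes known from innate-like B cells were examined as a list of 8 genes. Ighv11-2 and Igkv14-126 together encode antibodies of B-1 cells against phosphatidylcholine. Ighv11-2 had 40 UMIs in B cells of 9 libraries. Its mean share was 1.19%, and 0.726% without p21mTertCD_1, where it stood at 5.83%. In plasma cells it was found in 3 libraries, at 9.19% in WT, 1.92% in p21mTert_2 and 12.3% in p21mTertCD_1. All 6 plasma cells led by Ighv11-2 were led by Igkv14-126 as well, and 6 of the 7 led by Igkv14-126 by Ighv11-2. They were 1 cell of WT, 1 of p21mTert_2 and 4 of p21mTertCD_1, all Ighm cells. Over the remaining 390 plasma cells with a pair, 1 had Igkv14-126.

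The other list members led fewer plasma cells. Ighv12-3 and Igkv4-91, which encode another B-1 antibody against phosphatidylcholine, had 30 and 44 UMIs in B cells. In plasma cells Ighv12-3 had 9 UMIs, all in p21mTert_4, and Igkv4-91 had 82 in 4 libraries, at most 4.16% of Igkv UMIs, in p21mTert_4. Ighv7-1 and Igkv7-33, the genes of the T15 antibody against phosphorylcholine, had 11 UMIs and 1 UMI in B cells, and 6 and 0 in plasma cells. Ighv11-1 had 3 UMIs in B cells and 0 in plasma cells. For both Ighv11-1 and Igkv7-33, 0 of 439 plasma cells had a UMI. Were the cells independent, this would allow up to 0.683% of cells with a UMI by counting error. Cells of 1 library can share V genes and are not independent, so this figure understates the uncertainty. Nor does it set a limit on cells that use the gene, whose V exon reads may be missed or assigned to a near copy. Igkv5-43 was the most abundant of the list in B cells, with 191 UMIs in 10 libraries (mean share 2.93%), and had 342 UMIs in the plasma cells of 3 libraries.

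Plasma cells of a library matched each other in their leading Ighv gene more often than B cells did. Matching is the percentage of cell pairs within a library that have the same leading gene. For Ighv it was 6.17% ± 3.59 (SD, n = 11) in plasma cells and 2.14% ± 0.558 in B cells, higher in plasma cells in 10 of 11 libraries (difference 4.03, 2-sided exact sign-flip permutation p = 0.00488, adjusted p = 0.00977). In the later deposit alone the difference was 4.57 (exact p = 0.00781). WT had 12.1%, the p21Het libraries 0%, 3.91% and 4.40%, the p21mTert libraries 3.00%, 5.82%, 8.05%, 8.70% and 4.55%, and the p21mTertCD libraries 6.18% and 11.1%.

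For Igkv, WT plasma cells matched in 14.1% of cell pairs. The p21Het libraries had 2.22%, 2.20% and 13.3%, the p21mTert libraries 3.38%, 13.2%, 7.20%, 4.92% and 1.52%, and the p21mTertCD libraries 7.69% and 33.7%. In the 10 libraries with at least 10 assigned B cells it averaged 9.58% ± 9.83 in plasma cells and 2.99% ± 0.463 in B cells. The difference of 6.59 had an exact p of 0.0332 (adjusted p = 0.0332) and was positive in 6 of 10 libraries. It missed the threshold in 7 of 13 alternatives, the later deposit (7.86, exact p = 0.0625) and the removal of WT, p21Het_3, p21mTert_2, p21mTert_3, p21mTert_4 or p21mTertCD_2. Without p21mTertCD_2, where Igkv3-2 held 59.1%, it was 3.97 (exact p = 0.0664).

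**Figure D4:**
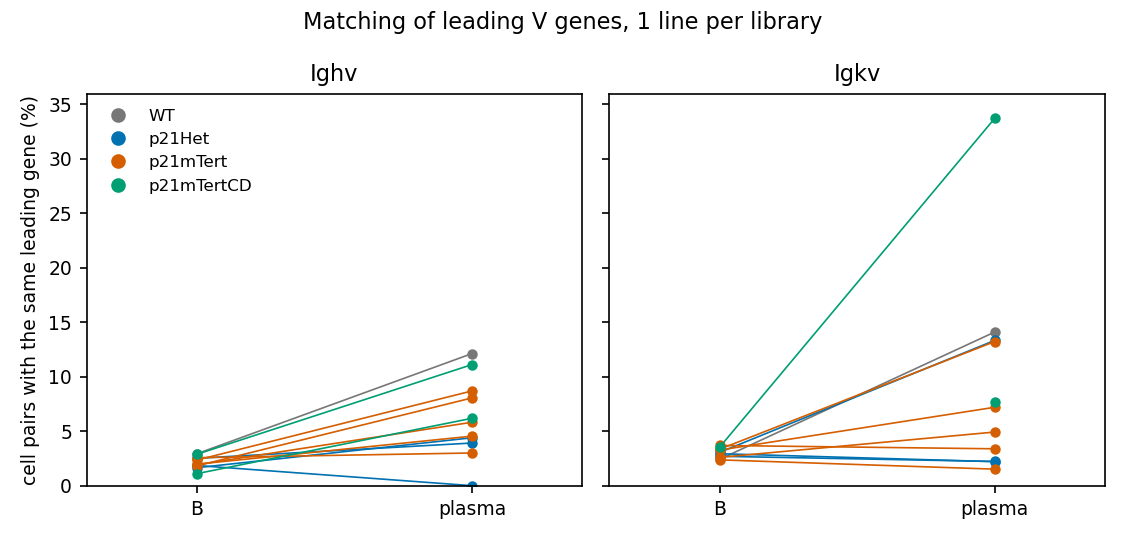
Percentage of cell pairs within a library that share their leading Ighv (left) or Igkv gene (right), in B and plasma cells, with 1 line per library coloured by genotype. B cells lie between 1.10% and 3.69%, and plasma cells between 0% and 33.7%; p21mTertCD_1 has no kappa value for B cells because 9 of them had a leading Igkv gene.

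Between genotypes the edgeR fit with the filter on low counts and no deposit term called no V gene over all libraries. Other fits called some in plasma cells. In B cells 53 V genes passed the filter. None was called in p21mTert minus p21Het, where 2 of 13023 genes were called (0.0154%), in p21mTert minus p21mTertCD (1 gene, 0.00768%), or in p21mTertCD minus p21Het (0%). At an unadjusted p under 0.05 there were 2, 2 and 1 V genes. DESeq2 called 0 V genes in each, beside 11, 44 and 6 of all 13015 genes. No share of all genes at the unadjusted threshold is given, so the V gene counts at it, here and in plasma cells, are not read as a result. The genes called by edgeR were Ifi208 and Gm20478, lower in p21mTert than in p21Het, and Ngp, a neutrophil granule gene, lower in p21mTert than in p21mTertCD. In plasma cells 77 V genes passed the filter, 0 were called in each contrast, as were 0 of 4681 genes (0%), and 17, 25 and 19 had an unadjusted p under 0.05. DESeq2 called 1, 0 and 1 (0.0429%, 0.0429% and 0.0215% of all genes), and the edgeR fit of the later deposit alone 1, 1 and 2 (0.0191%, 0.0383% and 0.0383%). With no filter 68, 82 and 68 of 186 V genes were called in the 3 contrasts, beside 1.02%, 1.03% and 0.692% of all 15327 genes. Of these, 31, 49 and 39 were among the 77 that passed the filter, where they were not called. The cause was not tested. In the edgeR fit with the filter and no deposit term, the lowest adjusted p of a V gene was 0.118, for Igkv17-121 in p21mTert minus p21Het. With the deposit as a term edgeR called this gene there (-9.23 on the log2 scale, adjusted p = 0.00923) and in p21mTertCD minus p21Het (-7.39, adjusted p = 0.0328). It was also called in the later deposit alone and without p21Het_1. Its most frequent pair, with Ighv1-39, was in 2 cells of p21Het_2 and 1 of p21Het_3.

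In B cells without p21mTertCD_2, so that p21mTertCD_1 alone stood for its genotype, 4 V genes were called against p21mTert, among them Igkv4-55, and 2 against p21Het, beside 0.307% and 0.0365% of all 13695 genes. The Igkv4-55 UMIs of p21mTertCD_1 include those of 1 of the 2 cells described with the B cell shares. The other cell was led by Ighv1-72 and Igkv8-30. For these genes p21mTert minus p21mTertCD was -3.42 and -5.54 on the log2 scale in that fit. The lone library is there assumed to vary like the other groups.

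Matching between plasma cells was compared between genotypes, where no contrast could pass after adjustment: with 3, 5 and 2 libraries the lowest adjusted p that exact permutation allows over the 6 tests is 0.0536. Ighv matching was 2.77% ± 2.41 (n = 3) in p21Het, 6.02% ± 2.38 (n = 5) in p21mTert and 8.65% ± 3.48 (n = 2) in p21mTertCD. p21mTertCD minus p21Het was 5.88, with no overlap of the libraries and the smallest p that 2 against 3 libraries allow (2-sided exact permutation p = 0.1, adjusted p = 0.286). p21mTert minus p21Het was 3.25 (exact p = 0.143, adjusted p = 0.286), and 2.62 in the later deposit (exact p = 0.133). Igkv matching was 5.92% ± 6.42, 6.05% ± 4.52 and 20.7% ± 18.4, with adjusted p from exact permutation of 0.286 to 0.964 over the 6 tests.

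**Figure D5:**
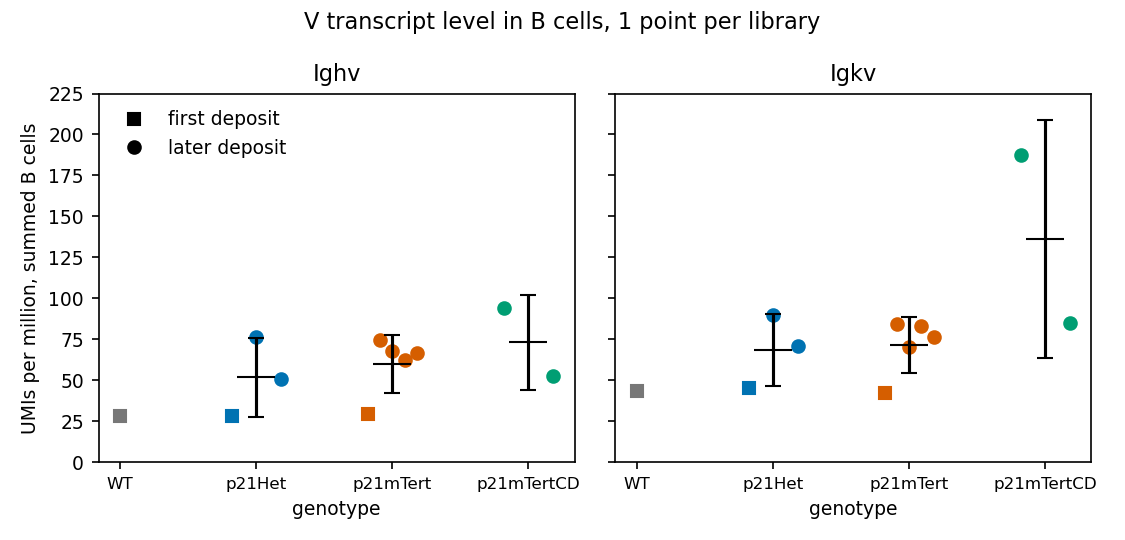
Summed Ighv (left) and Igkv (right) CPM of the summed B cells (y axis), by genotype (x axis), with 1 point per library and the mean ± SD of each replicated genotype. The 3 libraries of the first deposit (squares) are the lowest of both panels, at 28.1 to 29.6 and 42.6 to 45.6.

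The level of V transcripts in B cells varied with the deposit. Summed Ighv was 28.3 CPM in WT. The p21Het libraries had 28.1, 76.5 and 50.9 CPM, the p21mTert libraries 29.6, 74.5, 67.8, 62.7 and 66.8, and the p21mTertCD libraries 93.9 and 52.8. Summed Igkv was 43.6 CPM in WT, and in the same order of genotypes 45.6, 89.6 and 70.7, then 42.6, 84.5, 70.5, 83.1 and 76.7, then 187.8 and 84.8. WT, p21Het_1 and p21mTert_1 were lowest for both chains. These 3 libraries also had the lowest median UMIs per B cell (3469 to 3631, against 4493 or more), and whether the deposit accounts for the levels was not tested. On the log2(CPM + 1) scale Ighv differed by 0.26 in p21mTert minus p21Het (2-sided exact permutation p = 0.571), and Igkv by 0.07 (p = 0.821). Within the later deposit these were 0.12 (exact p = 0.667) and -0.0198 (exact p = 0.933).

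Igkv was lower in p21mTert than in p21mTertCD by 0.85 on that scale, and the libraries did not overlap. The exact permutation p was 0.0476, the smallest that 5 against 2 libraries allow, and 0.286 after adjustment over 6 tests, which likewise cannot go below 0.0536. Without B cells of 10 or more V UMIs the difference was -0.01 (exact p = 1), without p21mTertCD_1 it was -0.28, and in the later deposit -0.68 (exact p = 0.0667). The remaining 3 differences had exact permutation p from 0.3 to 0.571 and adjusted p of 0.686.

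Most of the other genes of the antibody pathway differed between plasma and B cells, and none of those tested was called between genotypes. Of 15 constant and lambda genes 13 were tested in plasma minus B cells, with 11 higher and 1 lower in plasma cells (median log2 change 4.75, against -0.21 over all genes). Over all genes 62.7% were called, 24.8% higher. Ighd, the constant gene of the antigen receptor IgD, fell by 5.89 on the log2 scale, Igha rose by 9.66 and Igkc by 6.42. Ighg1 did not pass (2.92, SE 1.65, adjusted p = 0.127). All 10 secretory genes were higher (median log2 change 4.49), among them Xbp1 by 4.71 and Prdm1 by 5.27, the regulators of plasma cell identity. The rule for plasma cells used Jchain, Derl3 and Tnfrsf17, so a higher secretory list in these cells is not independent of it. Of 5 recombination and switching genes only Ung, which repairs deaminated bases during switching, was tested, with 0 called. Between genotypes 0 of 13 constant and lambda genes and 0 of 10 secretory genes were called in either cell class, nor were the 4 recombination and switching genes tested in B cells. None of the latter passed the filter in plasma cells. At an unadjusted p under 0.05 there were 1 to 4 constant and lambda genes and 0 or 1 of each other list per contrast. The shares of all genes called at the adjusted threshold are those given with the V genes, 0% to 0.0154%. For the unadjusted threshold no such share is given.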

How the data were processed

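The deposited files are matrices of UMI counts per gene and barcode, 1 per library, made by the authors with Cell Ranger on mm10, per the submitters' processing notes. Its version is left out because the sources used here differ on it. Per the labels' protocols, RNA was captured from its 3′ end. V exons lie at the 5′ end of antibody mRNA, so few molecules are read into them, and reads of near-identical genes may have been split or dropped.

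Counts were summed per library and cell class. The members and gene lists were chosen with earlier results of these data known. Shares are percentages of the UMIs of a chain. edgeR 4.0.16 (R 4.3.3; filterByExpr, quasi-likelihood test) was fitted to all genes, with the log chain total as offset for V genes and TMM for the others. Benjamini-Hochberg adjusted p under 0.05 was the threshold. Genotype fits used the 10 replicated libraries, and plasma minus B cells all 11 with the library as block. DESeq2 1.42.0 was an alternative. Levels, matching and family shares were tested by exact permutation. The genotype fits were tested on simulated counts for p21mTert minus p21Het. Of changed genes, 59.3% were recovered in B cells and 39.5% in plasma cells at a log2 change of 1, and 93.4% in plasma cells at 2. The simulated spread was fixed and did not model V UMIs that come from single cells, so these rates do not carry over to V genes. The fit of plasma minus B cells was not simulated.

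Named genes are the 8 of each chain with the highest mean share in B cells, the 5 in plasma cells, the leading genes of each library, up to 5 called genes per direction and 8 genes of innate-like B cells. Pairs, partners and the neighbours of a sequence were chosen after their values were seen. Doublets were left in, and Scrublet scores (the highest 0.8% per 1000 barcodes of a library) or markers of other cell types removed them as alternatives. Other alternatives were level in place of share, no filter or a filter on 100 UMIs, cells counted once, thinning to 1000 UMIs, a pseudocount of 100, a leading gene of 10 UMIs, the deposit as a term or the later deposit alone, each library left out and, chosen after seeing the data, no upper UMI limit, no B cells of 10 or more V UMIs, Jchain of 100 or more and the filter on 100 UMIs. V positions and exons come from GENCODE M21 on GRCm38, the assembly that mm10 denotes, matched by gene identifier. D and J segments, junctions and mutations were not analysed here.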

Additional observations from a re-analysis of the deposited data

Results flagged for a closer look

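Within the 5 p21mTert libraries, 56 measures were examined for 1 library whose distance from the nearest other exceeded Dixon's 95% critical value of 0.71 times the range, and 6 were found. For independent, normally distributed values chance would give about 1 in 20. Several of these measures are plasma cell shares with values of 0, and some overlap, as Igkv1-110 is part of the Igkv1 family. That rate is therefore not a yardstick for the 6. Ighv in B cells stood at 29.6 CPM in p21mTert_1, the library of the first deposit, against 62.7 to 74.5 in the others. The Ighv2 family held 5.68% of plasma cell Ighv UMIs in p21mTert_3, against 0% to 0.625%. The Igkv1 family held 43.4% in p21mTert_2, against 0% to 3.89%, and Igkv1-110 alone 30.0%, against 0% to 2.08%. The Igkv6 family held 37.6% in p21mTert_5, which has 12 plasma cells, against 4.02% to 7.32%. Igkv14-126 held 2.98% in p21mTert_2 and had no UMI in the plasma cells of the other 4.

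The 289 barcodes over 30000 UMIs that met the plasma cell rule held 39435 V gene UMIs, more than the 32063 of the plasma cells within the limit.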

How the results depend on the processing

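p21mTertCD_1 with 126 B cells, libraries with 12 or 13 plasma cells, and single cells rich in V UMIs limit these values. The Igkv3 difference kept its direction in all 16 alternatives and passed after adjustment in 7. It was 19.4 percentage points with Jchain of 100 or more and 23.1 in the later deposit, neither past the threshold, and 16.4 to 23.6 without single libraries, of which 7 ended the call. Ighv matching in plasma minus B cells kept direction and call in all 14 (3.20 to 7.40). Igkv matching in plasma minus B cells missed the threshold in the later deposit (7.86) and ranged from 3.97 to 7.42 with 1 library left out. Over all 13 alternatives it ranged from 3.97 to 12.9. Over the 12 families, 166 of 192 alternatives kept direction and call, 9 lost it, all of Igkv3, 3 passed the adjusted threshold anew (Ighv1, Ighv14 and Igkv6) and 14 reversed: Ighv2 (0.29 with Jchain of 100 or more; -1.78 to 0.71 without single libraries), Ighv3 (-0.39 to 1.30), Ighv9 (-0.83 with no upper limit, -1.06 in the later deposit) and Igkv4 (9.77 with each cell counted once, 2.296 without B cells of 10 or more V UMIs, -1.50 to 2.08 without single libraries).

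V genes called in plasma minus B cells numbered 93 of 254 tested with no filter (35.9% of all genes called), 38 of 98 with the filter on 100 UMIs (54.4%), 7 of 15 with no upper UMI limit (65.8%), 1 of 1 without B cells of 10 or more V UMIs (62.9%), and 2 to 8 without single libraries (8 of 9 without p21mTertCD_1, 59.4%). In plasma cells of p21mTert against p21Het, of p21mTert against p21mTertCD and of p21mTertCD against p21Het, they numbered 68, 82 and 68 with no filter, 1, 1 and 2 in the later deposit, 1, 0 and 1 with DESeq2 and with the deposit as a term (in the latter 0.0214%, 0% and 0.0214% of all genes), and 0 to 1, 0 to 2 and 0 to 1 without single libraries (the calls came without p21Het_1, p21mTertCD_1 or p21mTertCD_2, where 0.0221%, 0.0361% and 0.0722% of all genes were called). In B cells they numbered 0, 0 to 4 and 0 to 2 without single libraries, all calls without p21mTertCD_2. The cause was not tested. With each cell counted once, no V gene passed the filter, so these fits gave no value.

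Ighv level was reversed in p21mTert minus p21Het without p21Het_1 (-0.12 to 0.59 without single libraries), and in p21mTert minus p21mTertCD without B cells of 10 or more V UMIs (0.13) and without p21mTertCD_1 (-0.70 to 0.12 over single libraries). Igkv level in p21mTert minus p21Het was -0.0198 in the later deposit and -0.19 (without p21Het_1) to 0.29 without single libraries. In p21mTert minus p21mTertCD it was -0.39 after thinning, -0.82 without cells with other markers, -0.0103 without B cells of 10 or more V UMIs, -0.68 in the later deposit and -1.42 to -0.28 without single libraries. Over 13 alternatives Ighv matching in plasma cells was 1.14 to 4.57 in p21mTert minus p21Het. Ighv matching in plasma cells was 1.29 with leading genes of 10 UMIs and 1.87 from UMI shares in p21mTert minus p21mTertCD, and -0.73 from UMI shares in p21mTertCD minus p21Het. Igkv matching in p21mTert minus p21Het was -1.73 with leading genes of 10 UMIs, -1.05 in the later deposit and -1.73 to 3.84 without single libraries.

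Replicates 2 and 3 of different genotypes, all of the later deposit, did not deviate together (r = 0.05, -0.07, -0.10 and -0.30 over 71 V genes). The first deposit was not checked, since its titles carry no number. With the replicate block, fitted to the later deposit only, Igkv level in p21mTert minus p21Het was -0.0438, and the V calls in plasma cells were 19, 14 and 11 in the 3 contrasts (of 23, 21 and 14 called among 5225 genes; 1, 1 and 2 V calls in that deposit without the block), against 0 in B cells.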
